A study of Mus musculus with 20 samples.

Results

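Repair of cisplatin lesions was followed through 9 genes of 30142 measured in mouse bladder tumors and metastases. They were taken by symbol: Brca1, Brca2, Fanca, Fancd2 and Fanci, which act in the repair of DNA crosslinks, and Xpa, Xpc, Ercc1 and Ercc4, which act in nucleotide excision repair. Each of the 9 had 1 row on the array, so no choice between rows was needed, and no filter on low values was applied.

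Cisplatin binds purine bases and joins them, mostly within 1 strand of DNA and more rarely across both strands. Nucleotide excision repair removes the lesions within a strand: Xpc recognises the distorted helix, Xpa checks the damage and holds the repair complex, and the nuclease made of Ercc1 and Ercc4 cuts the damaged strand on its 5′ side. Crosslinks between strands stall replication forks, where the Fanconi anaemia core complex, which holds Fanca, attaches ubiquitin to the Fancd2 and Fanci pair. The crosslink is then cut out, with Ercc4 and Ercc1 among the nucleases, and the broken strand is restored by homologous recombination, in which Brca1 acts at the processing of the ends and Brca2 at a later step. Transcripts of many replication and recombination genes are known to be highest in dividing cells.

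RNA of 20 tissue samples was hybridised to whole-transcript microarrays, 12 ng of RNA per sample. All mice were of the FVB/N strain and of 1 genotype, with floxed Rb (Rbf/f), loss of its relative p107 (p107-/-) and further floxed alleles that are not described here. Control bladders (n = 5, numbered 1, 2, 4, 5 and 6) were normal bladders of these mice. Bladder tumors (n = 7) came from mice given, into the bladder, an adenovirus that codes for Cre recombinase, which removes floxed segments in the cells it reaches. Treated bladders (n = 3) came from mice that also received CM272 by daily injection into the peritoneum for 30 days (5 mg/kg per day), and cisplatin every week (6 mg/kg per dose). CM272 blocks both G9a, which methylates histones, and the enzymes that methylate DNA. Metastases without treatment (n = 4) and 1 treated metastasis completed the set; the labels used here give neither their organ nor the age of the animals. No group received CM272 or cisplatin alone, so the agents cannot be told apart.

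Across the groups, 8 arrays stood apart: control bladders 4, 5 and 6, bladder tumors 3, 4 and 5, and metastases 3 and 4. Their deviations from the mean of all arrays correlated with those of no other array above 0.14, whereas each of the other 12 arrays had a closest array at 0.33 to 0.61. The level of tissue gene lists in these 8 was close to the overall mean (22 DNA replication genes averaged 5.79 to 5.83 in them and 5.33 to 6.58 in the 12), and they are called near-mean arrays here. All 3 treated bladders and the treated metastasis were among the 12, and the only controls there were numbers 1 and 2, which differed from every other array in Xist, at 10.8 and 10.9 against 6.44 or less. A difference from controls without the near-mean arrays therefore rests on these 2 controls. There, the group and what goes with the Xist level cannot be told apart. The mean log2 level of 13 luminal urothelium markers was 6.45 to 7.72 in control bladders, 5.36 to 8.98 in bladder tumors, 6.53 to 7.41 in treated bladders and 5.22 to 6.51 in metastases, so the tumor and metastasis ranges reached below that of the controls. Since these are whole tissues, fewer cells of a type and less RNA per cell cannot be told apart. The labels do not state whether samples of a group came from separate animals, so each p-value reflects only the sample-to-sample spread, part of which may be technical, and the number of arrays limits the precision.

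None of the 9 genes differed between groups past the threshold, an adjusted p under 0.05 (limma, Benjamini-Hochberg over all 30142 genes), in any of 5 comparisons. That is 0 of 45 tests, and over all genes too the share that passed was 0% in each comparison. At an unadjusted limma p under 0.05 there was 1 of 45, Brca2 in metastases against control bladders. No member separated any compared pair of groups without overlap. For comparison, the share of all genes without overlap was 0.179% for bladder tumor against control, 0.166% for treated bladder against tumor, 1.19% for treated bladder against control, 0.514% for metastasis against tumor and 2.95% for metastasis against control. The results below therefore give levels and intervals, and then how Brca1, Brca2 and Fanca varied from array to array with the level of DNA replication genes.

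**Figure D1:**
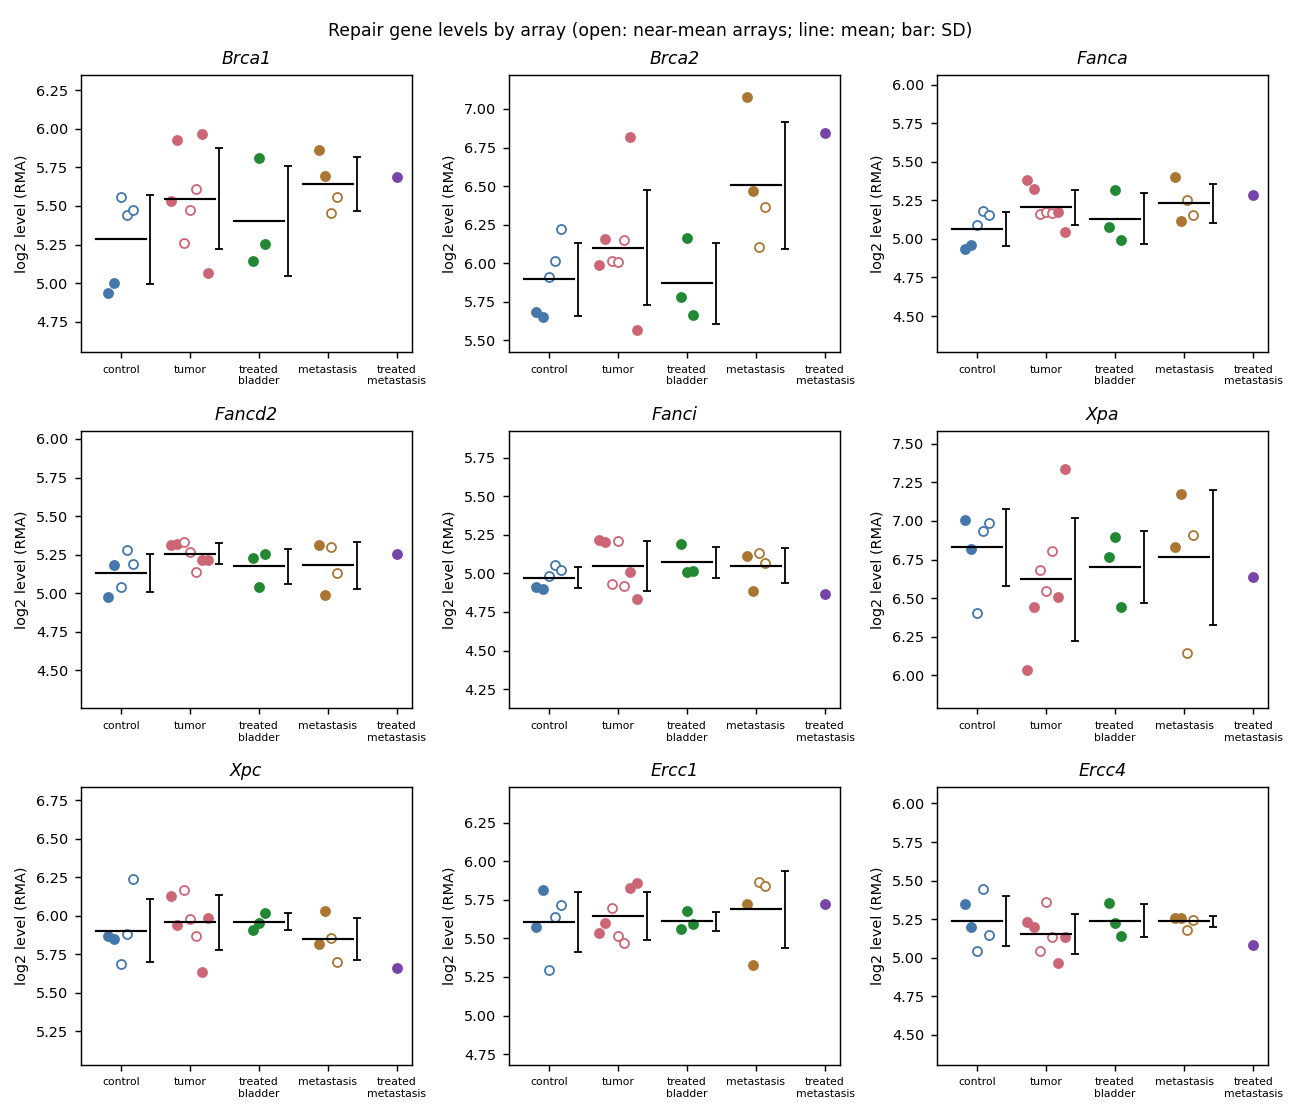
Log2 level (RMA, vertical axes) of each of the 9 repair genes in every array, by group on the horizontal axis; points are arrays, open points the 8 near-mean arrays, horizontal lines are group means, and whiskers the SD. Brca2 reached from 5.57 in bladder tumor 7 to 7.08 in metastasis 1, and in every panel the compared groups of 3 or more arrays overlap.

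Brca1, which acts at the ends of broken DNA in homologous recombination, read 4.94, 5.00, 5.56, 5.44 and 5.48 on the log2 scale in control bladders 1, 2, 4, 5 and 6. Across the 7 bladder tumors its lowest level was 5.07 (number 7), its median 5.53 and its highest 5.97 (number 6). Treated bladders 1 to 3 stood at 5.15, 5.81 and 5.25, metastases 1 to 4 at 5.87, 5.69, 5.46 and 5.56, and the treated metastasis at 5.69. The lowest arrays were thus controls 1 and 2 with tumor 7, and treated bladder 2 lay above 5 of 7 tumors. The group means were 5.28 ± 0.29 (SD, n = 5) in controls, 5.55 ± 0.33 (n = 7) in tumors, 5.40 ± 0.36 (n = 3) in treated bladders and 5.64 ± 0.18 (n = 4) in metastases. Tumors exceeded controls by 0.27 (SE 0.17, 95% interval -0.09 to 0.62, limma adjusted p = 0.999). Within the sets of arrays that difference was 0.66 without the near-mean arrays and -0.04 in the near-mean arrays alone. Metastases exceeded controls by 0.36 (95% interval -0.05 to 0.76, limma adjusted p = 0.724), by 0.81 without the near-mean arrays and by 0.01 in them alone. Treated bladders differed from tumors by -0.15 (95% interval -0.56 to 0.27), by -0.35 without treated bladder 2 and by -0.02 without treated bladder 1.

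Brca2, which acts in homologous recombination after Brca1, had the widest span of the 9 genes, 1.51 on the log2 scale or 2.85-fold between its lowest and highest array. Control bladders 1, 2, 4, 5 and 6 read 5.69, 5.65, 5.91, 6.01 and 6.22. Bladder tumors had a lowest level of 5.57 (number 7), a median of 6.01 and a highest of 6.82 (number 6), and treated bladders 1 to 3 read 5.78, 6.17 and 5.66. In metastases 1 to 4 the levels were 7.08, 6.47, 6.11 and 6.36, and the treated metastasis read 6.85. The 3 highest arrays were metastasis 1, the treated metastasis and bladder tumor 6, and the lowest of the untreated metastases lay below control bladder 6. Group means were 5.90 ± 0.24 (SD, n = 5) in controls, 6.10 ± 0.37 (n = 7) in tumors, 5.87 ± 0.26 (n = 3) in treated bladders and 6.50 ± 0.41 (n = 4) in metastases.

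Metastases exceeded control bladders in Brca2 by 0.61 on the log2 scale (SE 0.22, 95% interval 0.15 to 1.06), or 1.52-fold. The unadjusted limma p was 0.0114. Of all genes 3.13% had an unadjusted limma p under 0.05 with a higher mean in metastases. The adjusted limma p for Brca2 was 0.676, so the difference did not pass. It was 1.10 without the near-mean arrays and 0.19 in the near-mean arrays alone, and it was 0.42 with an unadjusted limma p of 0.0649 when metastasis 1 was left out. Other markers moved beside it: 18 of 19 mitosis genes and 22 of 22 DNA replication genes had a higher mean in metastases than in controls, as had 8 of 8 macrophage genes. The macrophage list level was 8.55, 7.83, 6.59 and 6.51 in metastases 1 to 4 and 5.68 to 6.78 in controls. Metastases 3 and 4 thus lay inside the control range. All 10 smooth muscle genes had a lower mean (list level 5.56 to 6.71 against 6.67 to 8.44). The 6 hepatocyte genes had a list level of 7.68 in metastasis 2 alone. In metastases 1, 3 and 4 it was 5.69, 5.38 and 5.40, against at most 5.63 in controls. The part of these in the Brca2 difference was not tested. Against bladder tumors, metastases differed in Brca2 by 0.40 (95% interval -0.02 to 0.83, limma adjusted p = 0.825), a value of 0.21 without metastasis 1. Tumors differed from controls by 0.20 (95% interval -0.19 to 0.60), which was 0.08 without tumor 6, 0.46 without the near-mean arrays and 0.01 in them alone. Treated bladders differed from tumors by -0.23 (95% interval -0.70 to 0.24), a value of -0.38 without treated bladder 2 and -0.11 without tumor 6.

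Fanca, a subunit of the Fanconi core complex, read 4.93, 4.96, 5.09, 5.18 and 5.16 in control bladders 1, 2, 4, 5 and 6. Tumors had a lowest level of 5.05, a median of 5.17 and a highest of 5.38 (number 1). Treated bladders 1 to 3 read 5.08, 5.32 and 5.00, metastases 1 to 4 read 5.40, 5.11, 5.25 and 5.15, and the treated metastasis 5.29. As with Brca1 and Brca2, controls 1 and 2 were among the lowest arrays and metastasis 1 among the highest. Tumors exceeded controls by 0.14 (SE 0.09, 95% interval -0.04 to 0.32), by 0.29 without the near-mean arrays and by 0.03 in them alone. Treated bladders differed from tumors by -0.07 (95% interval -0.29 to 0.14), by -0.17 without treated bladder 2 and by -0.01 without treated bladder 3.

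Fancd2 and Fanci, which form the pair that the core complex marks with ubiquitin, had narrow spans. Their levels, like those of Fanca and Ercc4, lay near the mean of 1561 chemosensory receptor genes, 4.62 to 5.26 per array. Whether any of these repair genes stood above background was not tested. For Fancd2, control bladders 1, 2, 4, 5 and 6 read 4.97, 5.18, 5.04, 5.28 and 5.19, and tumors ran from 5.14 over a median of 5.27 to 5.33. Its treated bladders read 5.23, 5.04 and 5.25, its metastases 5.31, 4.99, 5.30 and 5.13, and the treated metastasis 5.25. The tumors spanned the least, and controls and metastases reached both into and below their range. Tumors exceeded controls by 0.12 (95% interval -0.04 to 0.29), and treated bladders differed from tumors by -0.08 (95% interval -0.28 to 0.12), or -0.02 without treated bladder 2. For Fanci, controls read 4.91, 4.90, 4.99, 5.05 and 5.02, and tumors ran from 4.83 over a median of 5.01 to 5.22. Its treated bladders read 5.19, 5.01 and 5.01, its metastases 5.11, 4.89, 5.13 and 5.07, and the treated metastasis 4.87. Fanci was thus both lowest and highest in tumors, and its differences between group means stayed between 0.00 and 0.10 in the 5 comparisons.

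Among the excision repair genes Xpa, the damage verifier, varied most. Its control bladders 1, 2, 4, 5 and 6 read 7.004, 6.82, 6.40, 6.93 and 6.99, and its tumors ran from 6.03 (number 1) over a median of 6.55 to 7.34 (number 7), a 2.48-fold span that held both extremes of all 20 arrays. Treated bladders read 6.77, 6.90 and 6.44, metastases 6.83, 7.18, 6.15 and 6.91, and the treated metastasis 6.64. Here tumor 7, the lowest tumor in Brca1 and Brca2, was the highest. Tumors differed from controls by -0.21 (SE 0.20, 95% interval -0.62 to 0.21), a value of -0.33 without tumor 7 and -0.11 without tumor 1. Treated bladders differed from tumors by 0.08 (95% interval -0.41 to 0.57), a value that was -0.02 without tumor 1 or without treated bladder 2 and 0.21 without treated bladder 3.

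Xpc, the sensor of helix distortion, read 5.87, 5.85, 5.69, 5.88 and 6.24 in controls, and 5.63, 5.98 and 6.16 as the lowest, median and highest tumor. Treated bladders read 5.91, 5.95 and 6.02, metastases 5.82, 6.03, 5.85 and 5.70, and the treated metastasis 5.66. Both extremes came from single arrays, control 6 and tumor 6. Treated bladders and tumors had means of 5.96 ± 0.06 (SD, n = 3) and 5.96 ± 0.18 (n = 7), with a 95% interval of the difference from -0.25 to 0.26.

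Ercc1 and Ercc4 form the nuclease that excision and crosslink repair share. Ercc1 read 5.58, 5.81, 5.30, 5.64 and 5.72 in controls, 5.47, 5.60 and 5.86 as the lowest, median and highest tumor, 5.56, 5.68 and 5.59 in treated bladders, 5.72, 5.33, 5.87 and 5.84 in metastases and 5.72 in the treated metastasis. Ercc4 read 5.35, 5.20, 5.04, 5.45 and 5.15 in controls, 4.97, 5.14 and 5.36 as the lowest, median and highest tumor, 5.35, 5.22 and 5.14 in treated bladders, 5.26, 5.26, 5.18 and 5.25 in metastases and 5.08 in the treated metastasis. For both genes the control, tumor, treated bladder and metastasis groups all overlapped. Between treated bladders and tumors the difference was -0.03 for Ercc1 (95% interval -0.31 to 0.24) and 0.08 for Ercc4 (95% interval -0.13 to 0.30). Leaving out 1 array moved the Ercc4 value to 0.03 (treated bladder 1) or 0.13 (treated bladder 3), and the Ercc1 value to -0.07 (treated bladder 2) or 0.00 (tumor 7).

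**Figure D2:**
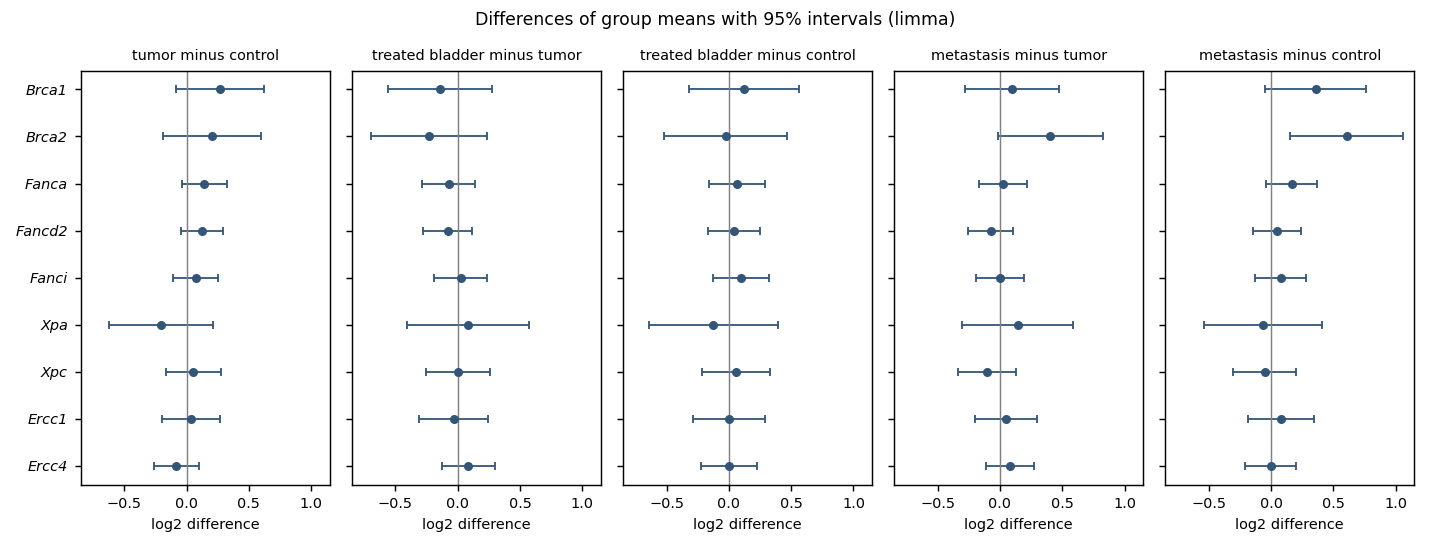
Difference of group means on the log2 scale (horizontal axes) with its 95% interval, for the 9 repair genes in the 5 comparisons. Of the 45 intervals, only that of Brca2 in metastasis minus control, 0.15 to 1.06, lies wholly on 1 side of 0.

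Set side by side, the crosslink members had higher means in tumors than in controls in 5 of 5 genes (median difference 0.14), and the excision members in 2 of 4 (median -0.02). Over all genes the median difference was 0.01, and 53% had a higher mean in tumors. Treated bladders had a higher mean than tumors in 1 of 5 crosslink members (median -0.08) and in 3 of 4 excision members (median 0.04), while 49.4% of all genes had a higher mean there. Against controls, treated bladders were higher in 4 of 5 and 3 of 4 members, with medians of 0.07 and 0.00, beside 52.8% of all genes. Metastases were higher than tumors in 4 of 5 and 3 of 4 (medians 0.03 and 0.06, 43.8% of all genes), and higher than controls in 5 of 5 and 1 of 4 (medians 0.17 and -0.03, 47.1% of all genes). These comparisons share group means, so their counts are not independent, and every one of the differences counted here failed the adjusted threshold. At an unadjusted p under 0.05, limma had 4.28% of all genes in tumor against control, 0.488% in treated bladder against tumor, 0.763% in treated bladder against control and 6% in metastasis against tumor, against 0 of 9 members in each; in metastasis against control it had 7.12%, against 1 of 9.

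With 1 array, the treated metastasis has no replicate check. It lay inside the range of the 4 untreated metastases for 6 of 9 members. It was below that range for Fanci (4.87 against 4.89 to 5.13), Xpc (5.66 against 5.70 to 6.03) and Ercc4 (5.08 against 5.18 to 5.26). Of all genes 33.5% lay outside the range and 19.1% below it, so 3 of 9 is near the share over all genes.

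Brca1, Brca2 and Fanca varied far more in the 12 arrays outside the near-mean set than within it. The sets were defined from these same data, by deviations that arrays share, so the contrast is a description only. The share of all genes with such a contrast was not counted. The SD over those 12 arrays was 0.39 for Brca1, 0.53 for Brca2 and 0.17 for Fanca, against 0.11, 0.14 and 0.04 over the 8 near-mean arrays. The median SD over all genes was 0.26 in the 12 and 0.25 in the 8, and Xpc, Ercc1 and Ercc4 had a smaller SD in the 12 (0.15, 0.15 and 0.11) than in the 8 (0.20, 0.19 and 0.14).

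In the 12 arrays the levels of these 3 genes followed the mean level of 22 DNA replication genes, a list that holds none of the 9. The share of all genes that followed the list as closely was not counted, so 3 of 9 has no background beside it. The permutation p-values take no account of the choice of the 12 arrays from these same data. For Brca2 Pearson's r was 0.95 (permutation p = 2e-05, adjusted 0.00108 over 54 relations) and Spearman's rho 0.92 (adjusted permutation p = 0.0027). For Brca1 r was 0.92 (adjusted permutation p = 0.00234) and rho 0.92 (adjusted 0.00216), and for Fanca r was 0.82 (adjusted permutation p = 0.0289) and rho 0.83 (adjusted 0.0121). Without the 2 arrays farthest from the median of the list, metastasis 1 and bladder tumor 6, r was 0.91 for Brca2, 0.91 for Brca1 and 0.86 for Fanca. With the mean of each group removed, over 11 arrays, it was 0.96, 0.91 and 0.70. The other 6 genes gave r of 0.32 (Fancd2), 0.23 (Fanci), -0.28 (Xpa), -0.50 (Xpc), 0.14 (Ercc1) and -0.44 (Ercc4), none of which passed. Over the 8 near-mean arrays, where the list mean ran only from 5.79 to 5.83, r was 0.05 for Brca1, 0.55 for Brca2 and 0.05 for Fanca, and none passed. Whether the relation of a member to the list differs between the sets of arrays was not tested. Metastasis 1, bladder tumor 6 and the treated metastasis, the arrays highest in the list, also had the lowest array medians. These were 5.08, 5.07 and 5.10, against up to 5.42 in other arrays. The part of such array-wide differences in r was not tested.

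**Figure D3:**
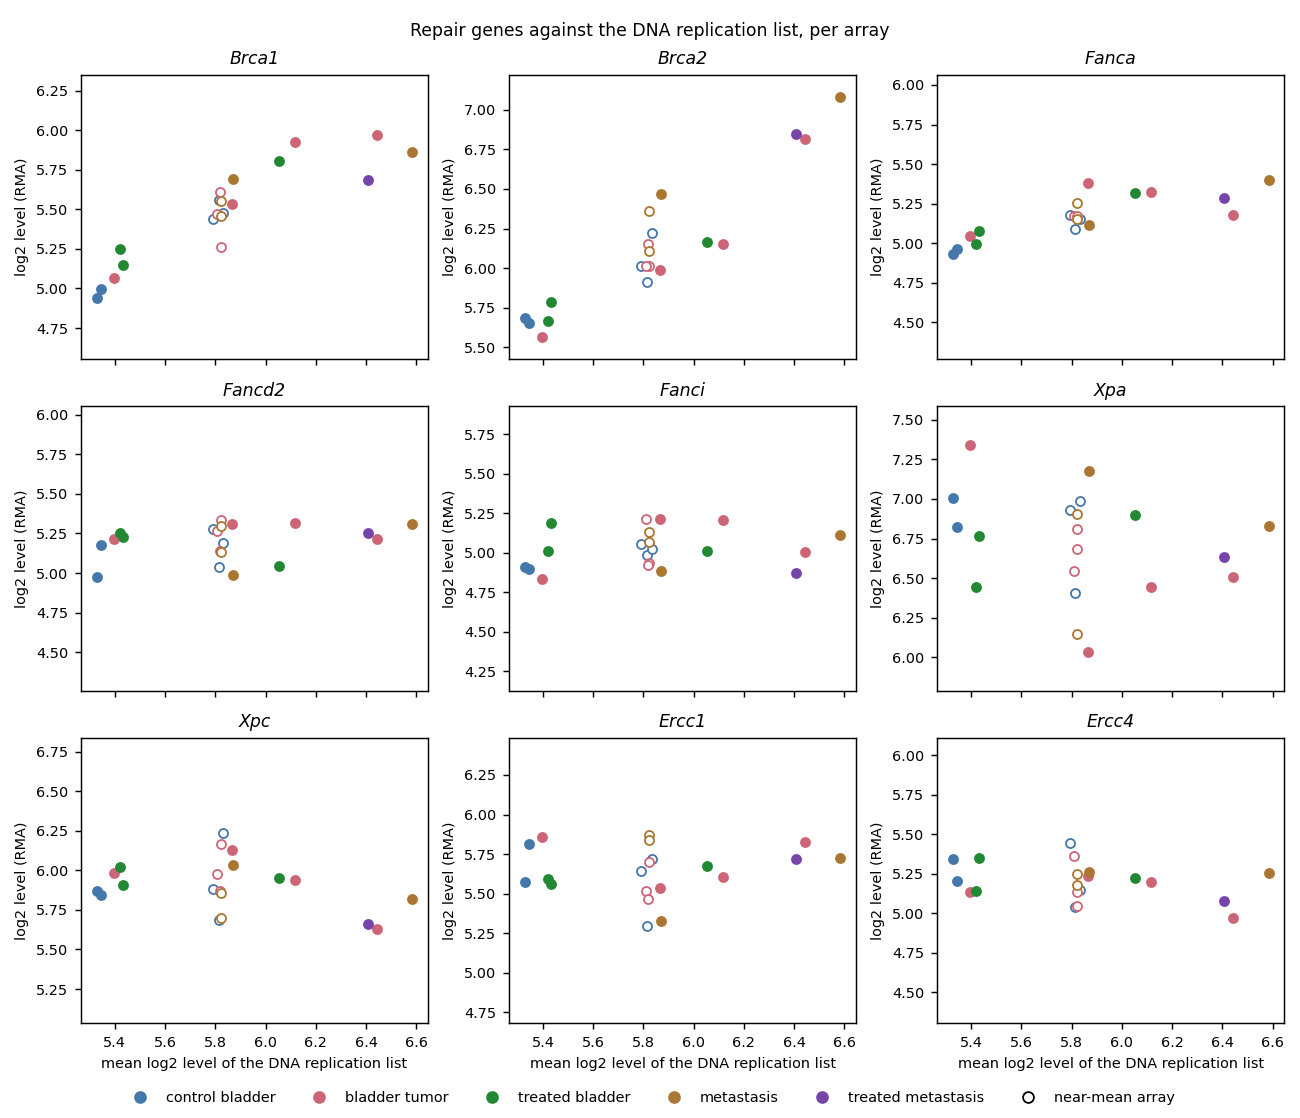
Log2 level of each repair gene (vertical axes) against the mean log2 level of 22 DNA replication genes (horizontal axes), 1 point per array coloured by group, with near-mean arrays open. Brca1, Brca2 and Fanca climb along the filled points (r = 0.92, 0.95 and 0.82 over 12 arrays), and the other 6 had r from -0.50 to 0.32.

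The 19 mitosis genes gave like values over the 12 arrays, with r of 0.90 for Brca1, 0.93 for Brca2 and 0.80 for Fanca (adjusted permutation p = 0.00378, 0.00135 and 0.0295). In the 8 near-mean arrays Brca1 ran against that list, with r of -0.83 (exact adjusted p = 0.0297) but a rho of -0.69 that did not pass (exact adjusted p = 0.288). Against 10 smooth muscle genes r over the 12 arrays was -0.70 for Brca1 and -0.73 for Brca2 (adjusted permutation p = 0.0735 and 0.0571). Their rho was -0.75 and -0.88 (adjusted permutation p = 0.0477 and 0.00378). With the mean of each group removed, over 11 arrays, r was -0.47 and -0.48. Without bladder tumor 7 and control bladder 2, the arrays farthest from the median of that list, r was -0.55 and -0.63. All of these points share the arrays and their normalization. Among the 9 members themselves no pair passed after adjustment over 72 relations; the highest r over the 12 arrays was 0.82 for Brca1 with Brca2 and 0.81 for Brca1 with Fanca (adjusted permutation p = 0.106 for both), and Fancd2 with Fanci had 0.55.

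Of 19615 genes searched, those most like Brca1 over the 12 arrays were Cdca5, Scrib and Mcm6 (r = 0.97, 0.96 and 0.95), and those most like Brca2 were Nup155, Trim59 and Rrm1 (0.98, 0.98 and 0.97). For Fanca they were Fam111a, Troap and Gins2 (each 0.93). Mcm6, Rrm1 and Gins2 belong to the replication list above. Fancd2 was closest to Cptp (0.92), Fanci to Zranb3 (0.94), Xpa to Tmem38b (0.93), Xpc to Nit1 (0.97), Ercc1 to Tasp1 (0.89) and Ercc4 to Pipox (0.89), and none of these is in that list. In the 8 near-mean arrays the same pairs had r from -0.29 (Fanca with Fam111a) to 0.50 (Xpc with Nit1) for the closest gene of each member. Being the highest of all genes searched, these values are a description only.

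The start regions of Brca1, Brca2 and Fanca, the 3 genes whose levels followed the replication list over the 12 arrays, are shown here, from 250 bases before to 50 bases after the RefSeq start (GRCm38.p6), 5′ to 3′ on the strand of the gene. Capitals mark matches to E2F words or to CCAAT. Brca1 lies at chr11:101551906-101552205 (minus strand), Brca2 at chr5:150522371-150522670 (plus strand) and Fanca at chr8:123318527-123318826 (minus strand). The whole RefSeq gene begins at chr5:150522297 for Brca2 and at chr8:123318651 for Fanca. The starts used for Brca2 and Fanca thus lie inside the gene, as do the matches marked in their sequences.
Brca1: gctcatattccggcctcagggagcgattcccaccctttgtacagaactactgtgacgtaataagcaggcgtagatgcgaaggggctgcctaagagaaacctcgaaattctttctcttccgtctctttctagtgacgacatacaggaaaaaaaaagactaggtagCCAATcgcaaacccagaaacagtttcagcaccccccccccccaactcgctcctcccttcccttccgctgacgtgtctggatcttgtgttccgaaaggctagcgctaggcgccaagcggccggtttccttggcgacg
Brca2: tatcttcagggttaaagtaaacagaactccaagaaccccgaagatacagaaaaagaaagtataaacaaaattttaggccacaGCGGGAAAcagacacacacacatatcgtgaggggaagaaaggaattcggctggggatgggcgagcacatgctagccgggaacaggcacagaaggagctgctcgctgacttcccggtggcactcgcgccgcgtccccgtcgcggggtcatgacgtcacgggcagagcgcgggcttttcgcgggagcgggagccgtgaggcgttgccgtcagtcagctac
Fanca: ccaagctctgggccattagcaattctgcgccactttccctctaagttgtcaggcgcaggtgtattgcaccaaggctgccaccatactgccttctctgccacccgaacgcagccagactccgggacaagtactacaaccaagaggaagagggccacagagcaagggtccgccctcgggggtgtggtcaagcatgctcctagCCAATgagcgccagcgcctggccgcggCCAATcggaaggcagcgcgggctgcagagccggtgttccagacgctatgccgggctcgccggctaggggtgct

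Of the 9 members 7 had a start region in the RefSeq table; Fancd2 and Xpc had none there. The E2F words searched, on both strands, were TTTGGCGC, TTTCCCGC, TTTGCCGC and TTTCGCGC. Brca2 held 1, TTTCCCGC on the opposite strand, which reads GCGGGAAA in the sequence above, 168 bases before the start used. Of 32851 windows of this length 2.26% held any of these words. CCAAT was found once in Brca1, 86 bases before the start, and at 50 and 23 bases before the start used for Fanca. Xpa and Ercc4 also held it, which makes 4 of 7 members beside 37.4% of all windows. The letters TTTGAA, known as the CHR element of mitotic genes, were in 0 of 7 member windows and in 17.9% of all windows. The 7 windows held 12 to 25 CpG dinucleotides, with a median of 7 over all windows. A match describes letters and does not show a bound site.

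The other genes of these pathways also had none past the adjusted threshold in any comparison (limma). The lists held 24 other Fanconi and crosslink genes, 21 other homologous recombination genes, 7 translesion polymerases and partners, 26 other excision repair genes and 17 damage signalling genes, and the members with the smallest p are named. In tumors against controls, where 53% of all genes had a higher mean, 13 of 26 excision genes were higher (median difference -0.01), 4 of 7 translesion genes (0.02) and 13 of 21 recombination genes (0.05). Of the Fanconi genes 19 of 24 had a higher mean (median difference 0.07), with the smallest p for Faap24 (0.23) and Fancg (0.10). Damage signalling genes were higher in 14 of 17 (median 0.10), among them Rad1, a part of the checkpoint clamp (0.18, limma adjusted p = 0.999), and Topbp1, an activator of the kinase Atr (0.27). Rad1 had means of 4.51 in controls, 4.69 in tumors and 4.79 in metastases, near the level of the chemosensory receptor genes. Whether Rad1 stood above background was not tested. Among recombination genes Gen1, a resolvase of joined DNA molecules, differed by 0.34 (limma adjusted p = 0.999) and the helicase gene Blm by 0.35. In treated bladders against tumors 49.4% of all genes had a higher mean. The means were higher in 0 of 17 damage signalling genes (median -0.10), 5 of 26 excision genes (median -0.07) and 5 of 24 Fanconi genes (median -0.05). They were also higher in 4 of 21 recombination genes (median -0.07) and 1 of 7 translesion genes (median -0.06). The replication and mitosis lists had 0 of 22 and 0 of 19 higher there, with medians of -0.25 and -0.32. Tissue markers differed too: the mean was higher in treated bladders for 9 of 10 smooth muscle genes (median 0.55) and 12 of 13 luminal urothelium genes (median 0.40), and for 0 of 8 macrophage genes (median -0.26). The part of any of these lists in the values of the repair lists was not tested. Named for that comparison were Mdc1 (-0.31), Rad17 (-0.16), Brip1 (-0.26), Fancl (-0.17), Gen1 (-0.27), Nbn (-0.26), Rpa3 (-0.20) and Ercc5 (0.11).

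In metastases against controls Usp1, which removes ubiquitin from Fancd2, differed by 0.37 (SE 0.12, limma unadjusted p = 0.00513, adjusted 0.676) without overlap of the groups. Topbp1 differed by 0.47, also without overlap, as did 2.95% of all genes. Ddb1, a damage sensor subunit, differed by 0.67, Rad1 by 0.28 and Polh, the polymerase that copies past cisplatin lesions, by 0.26, all with overlapping groups. Over the 5 repair lists 6 genes had an unadjusted limma p under 0.05 in this comparison, 5 with a higher and 1 with a lower mean in metastases. By list these were 1 of 24 Fanconi, 1 of 21 recombination, 1 of 7 translesion, 1 of 26 excision and 2 of 17 damage signalling genes. Over all genes the share at that p was 7.12%, so the count is near the share over all genes. Against tumors, metastases differed in Usp1 by 0.28, Fancl by -0.22, Gen1 by -0.37 and Rev3l, the catalytic subunit of another translesion polymerase, by 0.39, each at an unadjusted limma p under 0.05 and an adjusted p of 0.825.

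**Figure D4:**
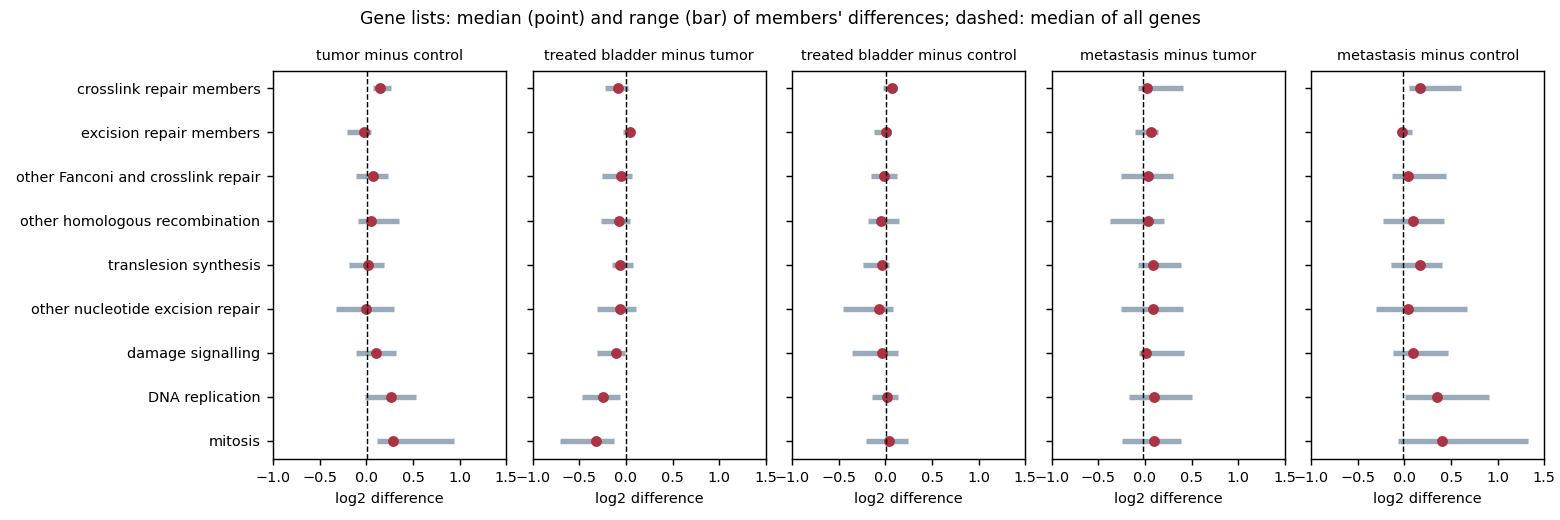
Median (points) and range (bars) of the log2 differences of the genes in each list, for the 5 comparisons; dashed lines are the medians of all genes. Of the 9 lists drawn, replication and mitosis have the medians farthest from the dashed line in tumor minus control (0.26 and 0.28) and in treated bladder minus tumor (-0.25 and -0.32); in treated bladder minus control they are near it (0.02 and 0.04).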

How the data were processed

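RNA from a kit for formalin-fixed tissue was hybridised to Affymetrix whole-transcript arrays, per the labels' protocols. The authors deposited log2 levels, for which the submitters' processing notes name RMA and Affymetrix Expression Console, with versions and settings not given in the sources used here. Because RMA brings arrays to 1 distribution, it removes differences in total RNA. Signal over background was not tested here. The mean level of 1561 chemosensory receptor genes was 4.62 to 5.26 per array, and Fanca, Fancd2, Fanci and Ercc4 read 4.83 to 5.45. For these genes a narrow span or a low r may reflect little signal, which was not tested. Of 65956 array features, 30604 had 1 symbol in the platform annotation, 2146 had several and were not used, and 33206 were unnamed here; this gave 30142 genes, the feature with the highest mean being kept for 355 genes with several.

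Group means of the 19 arrays of the 4 replicated groups were fitted with limma (version 3.58.1, R 4.3.3), with no covariates, and two-sided p-values were adjusted by Benjamini-Hochberg over all genes in each comparison. The fit was tested on simulated data. Correlations over arrays used 100000 permutations for 12 arrays and exact permutation for 8, two-sided. Near-mean arrays were defined from the data, at a correlation cut of 0.2, without using groups. Members and gene lists were chosen with earlier results of these data known. For every other list the 2 genes with the smallest p per comparison could be named, and for each member the 3 genes with the highest r. Alternatives were array weights, a trended prior, only the 2 groups compared, further normalization or centring, dropping low genes, averaging features, a replicate block, leaving out each array or the near-mean arrays and, added after seeing the data, the near-mean arrays alone. Some floxed loci and 1 recombination gene are not reported here.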

Additional observations from a re-analysis of the deposited data

Results flagged for a closer look

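In Ercc4, metastasis 3 lay below the 3 other metastases, at 5.18 against 5.25 to 5.26 on the log2 scale, a gap of 0.835 of the group's whole range. This was 1 of 27 combinations of gene and group examined, and chance alone marks about 1 in 20.

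In Fancd2 all 3 treated bladders lay below the mean of the bladder tumors, by values from -0.21 to -0.00, while the single treated metastasis lay 0.0729 above the mean of the untreated metastases. The difference between these responses was not tested.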

How the results depend on the processing

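In 1287 alternative fits of the 45 member differences no adjusted limma p fell under 0.05 (lowest 0.169), 44 had an unadjusted p under 0.05 and 80 had the opposite sign. Opposite signs included Brca1 in tumor against control in the near-mean arrays alone (-0.04). Brca2 in metastasis against control stayed positive, from 0.19 to 1.10, and had an unadjusted p under 0.05 in 27 of 29 alternatives; the exceptions were without metastasis 1 and in the near-mean arrays alone. The median difference of the 9 members kept its direction in every alternative for 4 comparisons; for treated bladder against control, 1 of 28 reversed it, and the range was -0.03 to 0.10.

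Counts over all genes with limma, 0 in each comparison, changed little, and the genes named next were chosen after their values were seen. With only the 2 groups, metastasis against control had 1 gene (Gm3534). With array weights, and with the genes of lowest mean dropped, metastasis against tumor had 2 (Defb5 and Hnrnph2). Without the near-mean arrays there was 1 in tumor against control and 1 in treated bladder against control (Xist in both), 4 in metastasis against tumor (Ahsg, Ctsk, Lyz1 and Prg4) and 5 in metastasis against control (these 4 and Xist). Leaving out 1 array at a time gave 0 to 2 for metastasis against tumor (2 without control bladder 5 or bladder tumor 6) and 0 to 1 for metastasis against control (1, Zfp354b, without bladder tumor 1), and 0 for the others.

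Correlations of deviations between samples of the same number ran from -0.51 (bladder tumor 1 with metastasis 1) to 0.44 (bladder tumor 1 with treated bladder 1). The treated metastasis was not in this check, and each comparison had few such pairs. Whether the replicate numbers pair the samples was therefore not settled, and the main fit used no pairing. With the replicate block no gene passed in any comparison, and Brca2 in metastasis against control was 0.83 (limma adjusted p = 0.500).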
